A study of Homo sapiens with 2 samples.

Results

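The genes described here are 46 genes of oxygen sensing and glucose use: 8 regulators of hypoxia-inducible factor (HIF), 17 enzymes of glycolysis, 9 regulators and transporters around it, and 12 other genes that HIF is known to induce. They were chosen by name, and a probe counted for a gene where the platform annotation gave it that single symbol. Of the 46 genes, 41 had a named probe, out of 18821 named genes in all. GAPDH, PGAM1, SLC16A1, SLC16A3 and CA9 had no named probe and were not analysed here. The 41 genes were read by 57 of the 29187 probes, and 56 of these 57 had an intensity above 0 on both arrays and were compared.

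RNA came from Hep3B, a human hepatocellular carcinoma cell line, 24 h after transfection with 90 pmol per well of a miR-19b inhibitor (anti-miR-19b) or of a control. Each condition was deposited as 1 array (Human OneArray), with no replicate. The study printed a P-value for each gene of its suppressed list, but its methods do not say which repeated measurements gave it. The sample labels name the first condition anti-miR-19b and miR-19b knockdown, whereas the design line of the series calls it miR-19b transfected. The labels were followed here, as the study's methods describe an inhibitor. No exposure of these cells to low oxygen is described. Both conditions went through the same lipid transfection, so that the control carries it as well. The inhibited microRNA, from RefSeq (GRCh38.p14), is shown with its seed (bases 2 to 8) in capitals, as the seed is what pairs with target transcripts. It is encoded at chr13:91351245-91351267 (MIR19B1, plus strand) and at chrX:134169683-134169705 (MIR19B2, minus strand), with the same mature sequence.
hsa-miR-19b-3p: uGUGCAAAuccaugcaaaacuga

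HIF is a pair of an oxygen-regulated alpha subunit (HIF1A or EPAS1) and the stable subunit ARNT. In the presence of oxygen the prolyl hydroxylases EGLN1, EGLN2 and EGLN3 mark the alpha subunit, VHL binds the marked protein for degradation, and HIF1AN hydroxylates it at another residue and blocks its coactivators. When oxygen is low the alpha subunit persists, binds hypoxia response elements with the core ACGTG or GCGTG, and induces glucose transporters, glycolytic enzymes and genes of vessel growth, pH control and matrix. Tumor cells of the liver are known to run glycolysis at a high rate. The arrays read mRNA and not HIF protein, whose amount is set mainly by degradation.

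The deposited values are normalized intensities on a linear scale, with a median over all probes of 28.1 on the anti-miR-19b array, against 26.0 on the control array. A ratio is given as log2 of anti-miR-19b over control, and its median over the 26186 compared probes was 0.028. Probes were called bright where their mean log2 level reached the median of the compared probes (an intensity of 41.4) and dim otherwise. As no replicate is among the deposited values, each probe was read against a yardstick. This is the spread of the ratio among the 500 probes nearest in level, the distance between percentiles 16 and 84 over 2. Over all probes this spread was 0.26 for bright and 0.87 for dim probes. No test could be made with 1 array per condition, and all values describe these 2 arrays. What the inhibitor did and what differed between the cultures or hybridizations cannot be told apart. Of 10 hepatocyte markers, 9 were read by a bright probe, among them ALB (15550 on the anti-miR-19b array, against 14382 on the control array) and AFP (1783 with anti-miR-19b and 1371 in the control). Of 9 markers of fibroblasts, leukocytes and endothelium, 3 were read by a bright probe, with ratios from -0.20 to -0.047.

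Most of these genes were close to their level on the control array, with 33 of the 41 compared within 1.5-fold. The median log2 ratio of the 41 compared genes was -0.059, against 0.027 for all 17438 genes compared. Above 0 lay 18 of the 41 (43.9%, against 53.1% of all genes), and 23 lay below. Over 1.5-fold higher were 4 genes (EGLN3, HK1, ALDOA and SLC2A1), in a series where 12.4% of all genes were, and over 1.5-fold lower were 4 genes (PFKM, SLC2A3, P4HA2 and ANKRD37), where 10.8% of all genes were. These counts lie near the share of all genes. All of these genes except P4HA2 owed their place to dim probes. Over bright probes alone, 35 of the genes were compared, 0 were over 1.5-fold higher (1.73% of all genes read this way) and 1 was over 1.5-fold lower (0.941%), namely P4HA2.

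**Figure D1:**
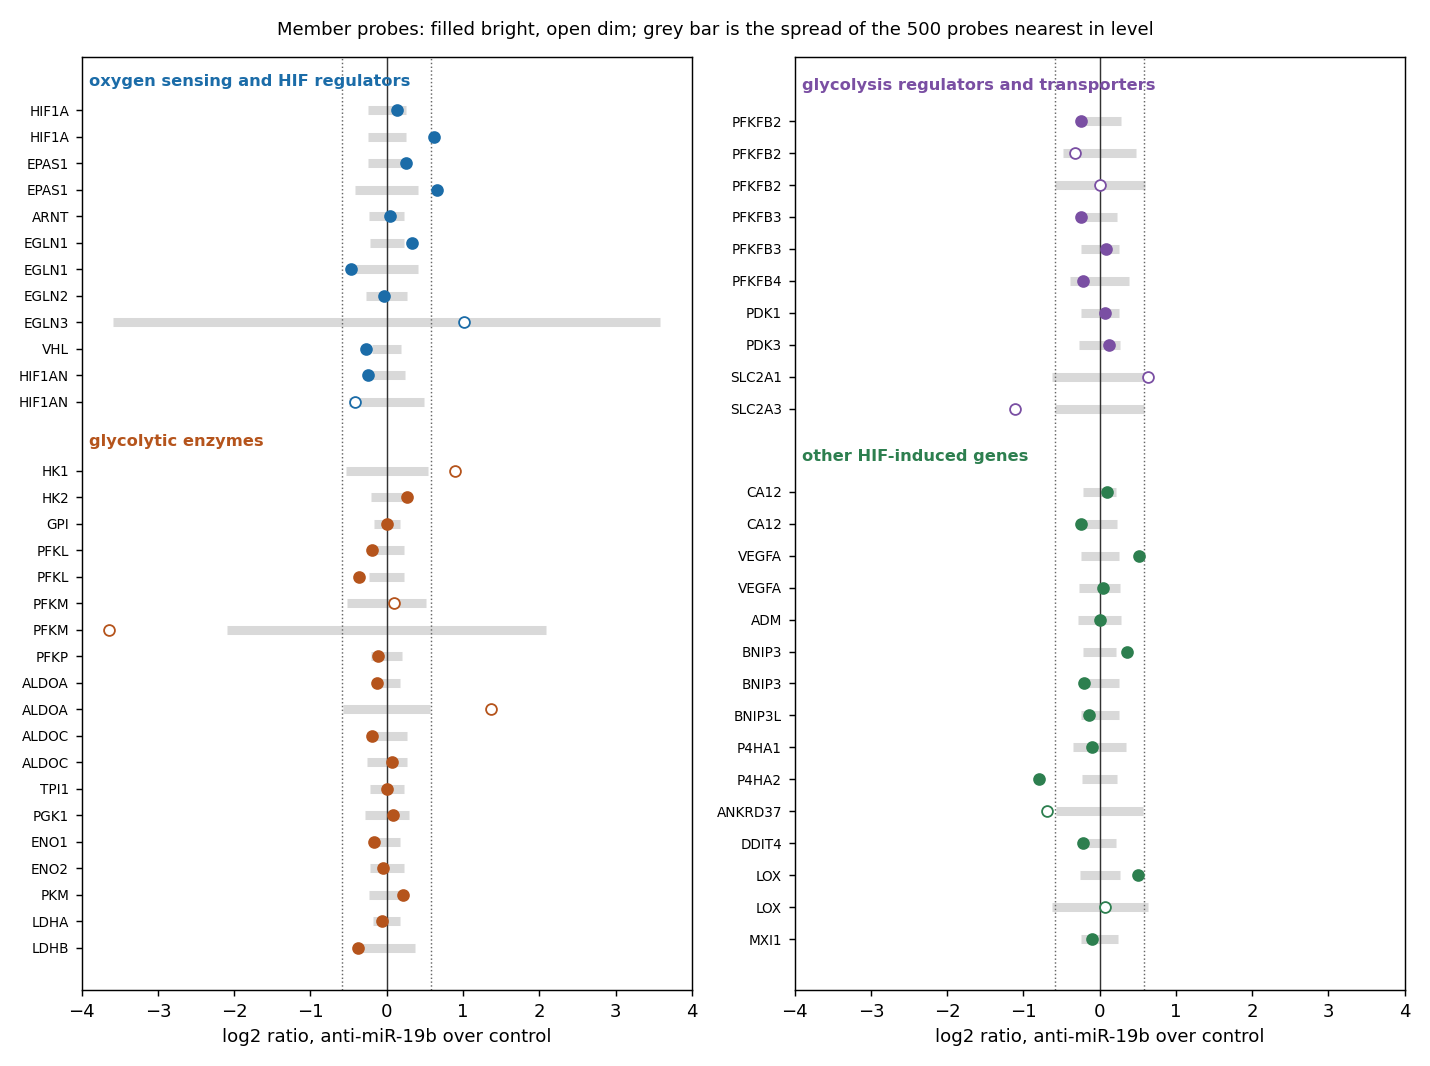
Log2 ratio of anti-miR-19b over control for the 56 compared probes, grouped by role (x axis, log2 scale; 1 row per probe, named by gene). Filled points are bright and open points dim probes, grey bars show the spread of the 500 probes nearest in level drawn around 0, and dotted lines mark 1.5-fold; among the filled points only those of HIF1A (0.62), EPAS1 (0.66) and P4HA2 (-0.79) lie past a dotted line.

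Seen by probe, 3 of the 44 bright probes were over 1.5-fold apart (6.82%, against 3.47% of all bright probes). Of these 3, 2 were higher (2.41% of all bright probes were) and 1 was lower (1.05% were). The ratio was wider than the yardstick at 17 of the 44 (38.6%), against 32.1% of all bright probes. By role this held for 6 of 10 bright probes of the oxygen sensors, 4 of 15 of the glycolytic enzymes, 1 of 6 of the glycolysis regulators and transporters, and 6 of 13 of the other HIF-induced genes. Of the 12 dim probes, 7 were over 1.5-fold apart (58.3%), against 48% of all dim ones.

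HIF1A and EPAS1, the oxygen-regulated alpha subunits, were both higher on the anti-miR-19b array at each of their probes. The probes of HIF1A had intensities of 356 and 365 on the anti-miR-19b array, against 231 and 332 on the control array. Their log2 ratios were 0.62 and 0.14, and the yardstick was 0.25 for both, so that only the probe at 0.62 passed it. HIF1A was among the genes the study had selected on these arrays, so that its direction here is no independent evidence. EPAS1, which encodes HIF-2 alpha, had 175 and 59.4 on the anti-miR-19b array, against 147 and 37.5 on the control array. Its log2 ratios were 0.25 and 0.66, with yardsticks of 0.25 and 0.41. The gene means were 0.38 for HIF1A and 0.46 for EPAS1, and the difference between these paralogs, -0.079, is smaller than the gap between the probes of either gene (0.49 for HIF1A and 0.41 for EPAS1). ARNT, the partner of both, was at 1434 on the anti-miR-19b array, against 1397 on the control array, a log2 ratio of 0.037.

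Among the genes that restrain HIF, VHL and HIF1AN were lower on the anti-miR-19b array at each probe, and the hydroxylases had no common direction. VHL, the recognition subunit of the ligase that degrades HIF alpha, had 7167 on the anti-miR-19b array, against 8644 on the control array (log2 ratio -0.27, yardstick 0.19). HIF1AN, the asparagine hydroxylase, had 236 on the anti-miR-19b array, against 278 on the control array at its bright probe (-0.24, yardstick 0.24), and 14.4 with anti-miR-19b and 19.1 in the control at its dim probe (-0.41, yardstick 0.49). EGLN1, the main prolyl hydroxylase of most cells, gave no single direction, since its probes disagreed. One of its probes had 569 on the anti-miR-19b array, against 454 on the control array (0.33), and the other had 38.5 with anti-miR-19b and 53.2 in the control (-0.47). EGLN2 was at 129 with anti-miR-19b and 133 in the control (-0.042). EGLN3, a hydroxylase that HIF itself induces, was read near the floor, at 0.942 on the anti-miR-19b array, against 0.466 on the control array, so that its log2 ratio of 1.01 is well inside the yardstick of 3.59 for probes that dim. The median of the 8 regulators was -0.002, and over the 7 with a bright probe it was -0.042.

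All 13 glycolytic enzymes with a bright probe were within 1.5-fold, from -0.38 to 0.26, with a median of -0.059. Of all 9990 genes with a bright probe, only 2.67% were past 1.5-fold, and the median of all was 0.023. Over all 15 compared enzymes the median was -0.048. By probe, the ratios of the oxygen sensors ran from -0.47 to 0.66 at bright probes.

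At the entry of the pathway, HK2, the hexokinase that phosphorylates glucose in many tumors, had 3798 on the anti-miR-19b array, against 3176 on the control array (log2 ratio 0.26, yardstick 0.20). HK1, the hexokinase of most tissues, was read by a dim probe at 30.2 with anti-miR-19b and 16.2 in the control (0.90, yardstick 0.54). Both isoenzymes were thus higher on the anti-miR-19b array, but their difference of 0.64 rests on the dim probe of HK1. GPI, which turns glucose 6-phosphate into fructose 6-phosphate, had 28108 with anti-miR-19b and 27980 in the control (0.007).

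The phosphofructokinases, which commit sugar to glycolysis, lay below 0 at every bright probe. PFKL, the liver form, had 1313 and 395 on the anti-miR-19b array, against 1501 and 507 on the control array, with log2 ratios of -0.19 and -0.36 and a yardstick of 0.23 for both. PFKP, the platelet form, had 3933 on the anti-miR-19b array, against 4278 on the control array (-0.12). PFKL and PFKP differed by -0.16, within the yardstick. PFKM, the muscle form, was dim at both probes, with 35.1 on the anti-miR-19b array, against 32.7 on the control array at one (0.10) and 0.662 with anti-miR-19b and 8.24 in the control at the other (-3.64). Its gene mean of -1.77 therefore comes from a probe near the floor, and at the brighter probe PFKM was within 1.5-fold.

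In the middle of the pathway, ALDOA, the aldolase of muscle and of many tumors, had 21230 on the anti-miR-19b array, against 23271 on the control array at its bright probe (-0.13). Its dim probe had 46.5 with anti-miR-19b and 17.9 in the control (1.37), which alone put the gene mean of 0.62 over the threshold. ALDOC, the aldolase of brain, had 307 and 175 on the anti-miR-19b array, against 350 and 167 on the control array (-0.19 and 0.069). TPI1, which interconverts the triose phosphates, was at 2670 with anti-miR-19b and 2661 in the control (0.005). PGK1, which makes the first ATP of the pathway, was at 68.5 with anti-miR-19b and 64.6 in the control (0.085).

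At the end of the pathway, ENO1, the ubiquitous enolase, had 49442 on the anti-miR-19b array, against 55800 on the control array (-0.17, yardstick 0.17). ENO2, the neuronal enolase, had 478 with anti-miR-19b and 494 in the control (-0.048), and the enolases differed by -0.13. PKM, which forms pyruvate, had 1743 with anti-miR-19b and 1503 in the control (0.21, yardstick 0.23). LDHA, the lactate dehydrogenase subunit that HIF induces, had 14116 with anti-miR-19b and 14758 in the control (-0.064), and LDHB, the heart-type subunit, had 44.3 with anti-miR-19b and 57.6 in the control (-0.38, yardstick 0.37). The difference between LDHA and LDHB was 0.31, and the LDHB probe lay just above the level that separates bright from dim probes.

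**Figure D2:**
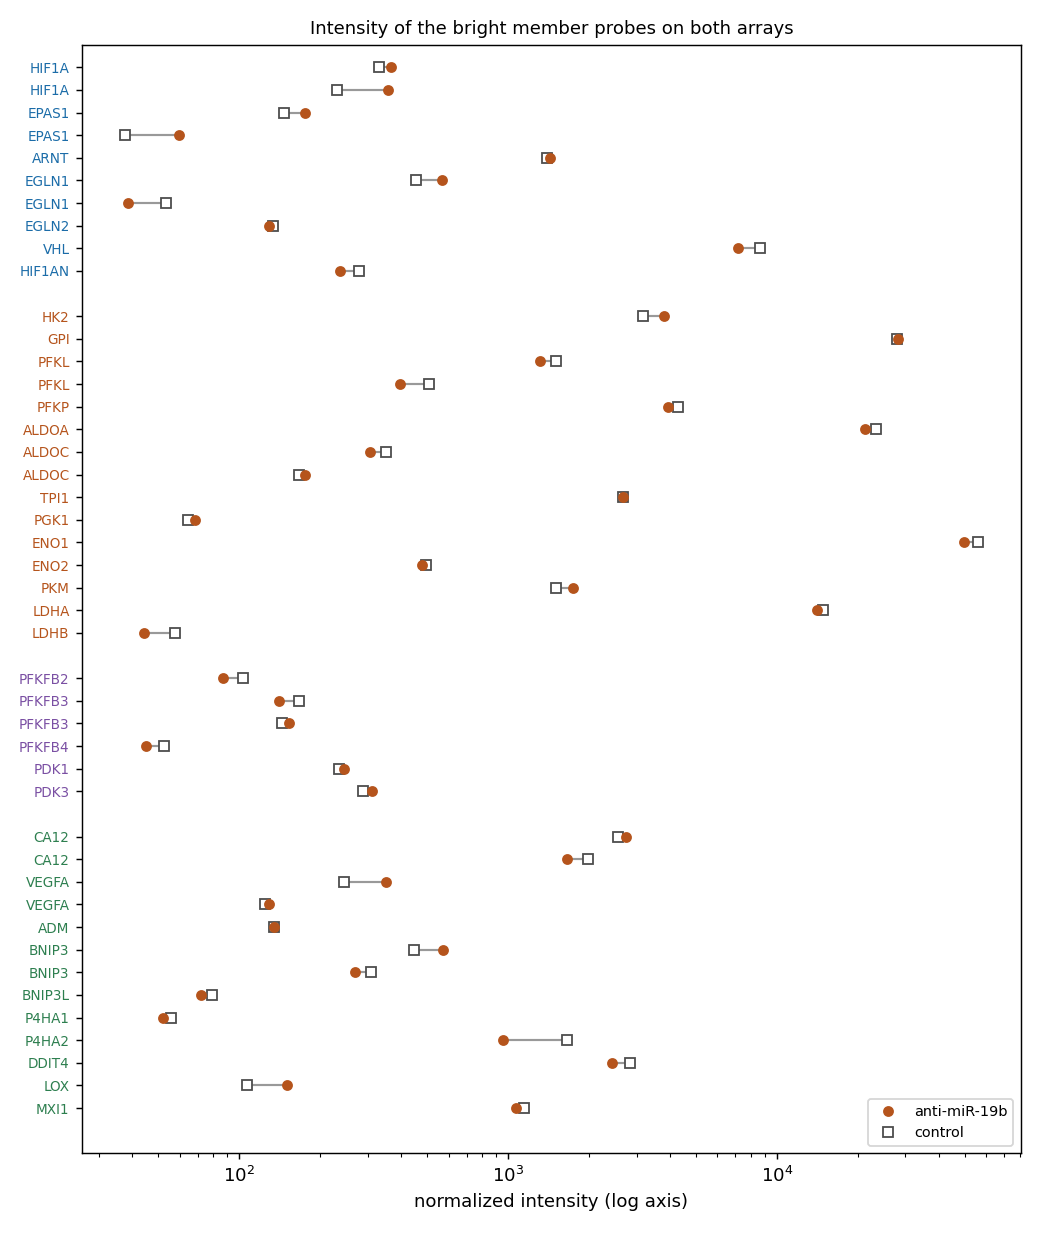
Normalized intensity of the 44 bright probes on the anti-miR-19b array (filled circles) and on the control array (open squares), on a log axis, 1 row per probe with gene names colored by role. Most pairs nearly coincide; the widest are P4HA2 (956 with anti-miR-19b and 1658 in the control), EPAS1 (59.4 with anti-miR-19b and 37.5 in the control) and HIF1A (356 with anti-miR-19b and 231 in the control).

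The enzymes that set fructose 2,6-bisphosphate, the activator of phosphofructokinase, were also near 0. At bright probes PFKFB2 had -0.25, PFKFB3 -0.24 and 0.088, and PFKFB4 -0.22, with yardsticks from 0.23 to 0.39. PDK1 and PDK3, kinases that inhibit pyruvate dehydrogenase, had 246 and 312 on the anti-miR-19b array, against 234 and 288 on the control array (0.073 and 0.12). They differed by -0.043, and neither passed its yardstick. The glucose transporters of this role were both dim. SLC2A2, a glucose transporter outside these genes, had a bright probe at 503 with anti-miR-19b and 432 in the control (0.22). SLC2A1, which encodes GLUT1, had 12.5 on the anti-miR-19b array, against 8.10 on the control array (0.63, yardstick 0.62). SLC2A3, which encodes GLUT3, had 8.12 with anti-miR-19b and 17.5 in the control at one probe (-1.11, yardstick 0.58), and its other probe, at -0.825 with anti-miR-19b and 6.50 in the control, was below 0 on the anti-miR-19b array and was not compared. The difference of 1.73 between GLUT1 and GLUT3 was thus read near the floor. The median of the 7 compared genes of this role was -0.075.

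Among the other HIF-induced genes P4HA2 stood apart. P4HA2 encodes a catalytic subunit of the prolyl hydroxylase that stabilizes collagen. Its intensity was 956 on the anti-miR-19b array, against 1658 on the control array, which is 1.73 times as high in the control. The log2 ratio was -0.79 against a yardstick of 0.23, and none of the 500 probes nearest in level had a lower ratio (percentile 0). It rests on a single probe, and P4HA2 is absent from the study's list of suppressed genes on these arrays. P4HA1, the paralogous subunit of the same enzyme, had 52.0 with anti-miR-19b and 55.6 in the control (-0.10, yardstick 0.35), so that the paralogs differed by 0.70. This was the widest gap among the 12 pairs of isoenzymes or paralogs that could be compared at bright probes, whose median gap was 0.14. LOX, which cross-links collagen after that enzyme has acted, had 151 on the anti-miR-19b array, against 107 on the control array at its bright probe (0.50, yardstick 0.26) and 10.4 with anti-miR-19b and 9.85 in the control at its dim probe (0.076). P4HA1, P4HA2 and LOX thus did not share a direction.

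VEGFA, the main growth factor of blood vessels, had 350 and 129 on the anti-miR-19b array, against 245 and 125 on the control array. Its log2 ratios were 0.52 and 0.046, and the yardsticks were 0.25 and 0.27. ADM, a vasodilator peptide, had 134 on both arrays (log2 ratio 0.000). CA12, a carbonic anhydrase of the cell surface, had 2751 and 1655 on the anti-miR-19b array, against 2566 and 1973 on the control array (0.10 and -0.25). BNIP3, which directs damaged mitochondria to autophagy, had 574 and 270 on the anti-miR-19b array, against 448 and 310 on the control array (0.36 and -0.20). The probes of CA12 and BNIP3 lay on opposite sides of 0, and neither gene had a direction. BNIP3L, its paralog, was at 71.7 with anti-miR-19b and 79.2 in the control (-0.14). DDIT4, an inhibitor of mTORC1 under stress, had 2432 with anti-miR-19b and 2833 in the control (-0.22, yardstick 0.22), and MXI1, an antagonist of MYC, had 1070 with anti-miR-19b and 1148 in the control (-0.10). ANKRD37 was dim, at 21.1 with anti-miR-19b and 34.0 in the control (-0.69, yardstick 0.57). The median of the 11 genes was -0.10, and 4 of them lay above 0 (36.4%, against 53.1% of all genes) and 7 below.

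**Figure D3:**
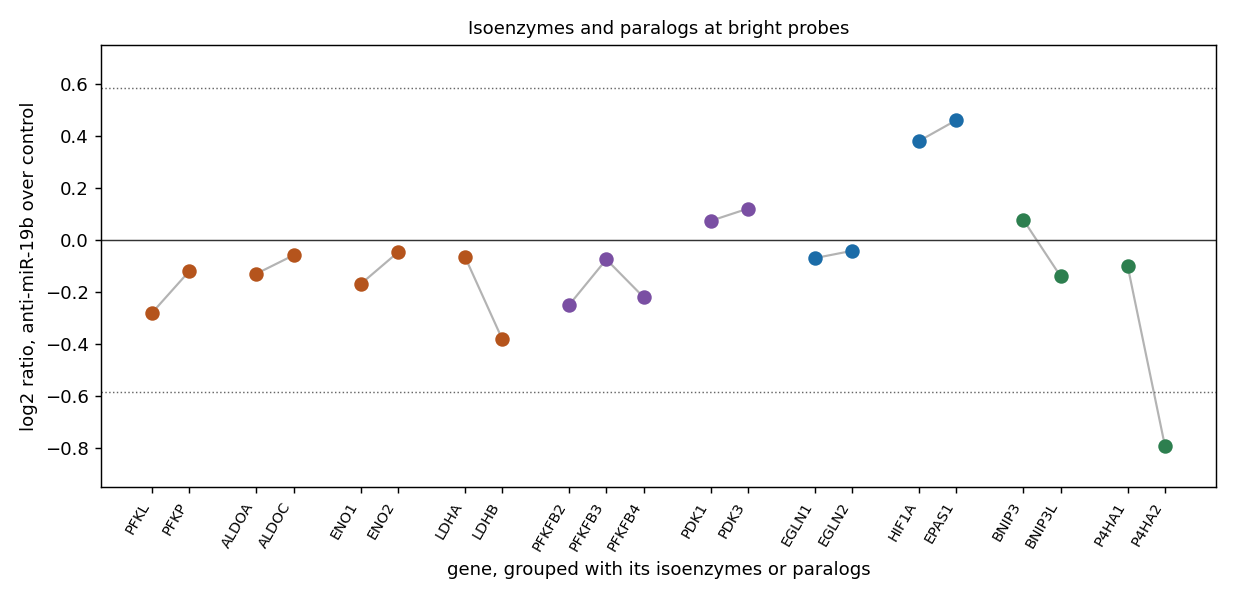
Log2 ratio of anti-miR-19b over control at bright probes for isoenzymes and paralogs (y axis, log2 scale; mean of a gene's bright probes; lines join the members of a set; dotted lines mark 1.5-fold). HIF1A and EPAS1 lie together at 0.38 and 0.46, whereas P4HA1 (-0.10) and P4HA2 (-0.79) are the pair farthest apart.

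How far a ratio can be trusted was read from genes with more than a single probe. Exactly 2 bright probes read 9 of the genes. Their ratios differed by 0.17 (PFKL) to 0.79 (EGLN1), with a median of 0.41, against a median of 0.24 over all 1629 genes of this kind. The probes lay on the same side of 0 in 4 of the 9 (HIF1A, EPAS1, PFKL and VEGFA) and on opposite sides in 5, and over all such genes on the same side in 56.8%. The ratios of single probes such as VHL, HK2 and P4HA2 carry no such check.

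**Figure D4:**
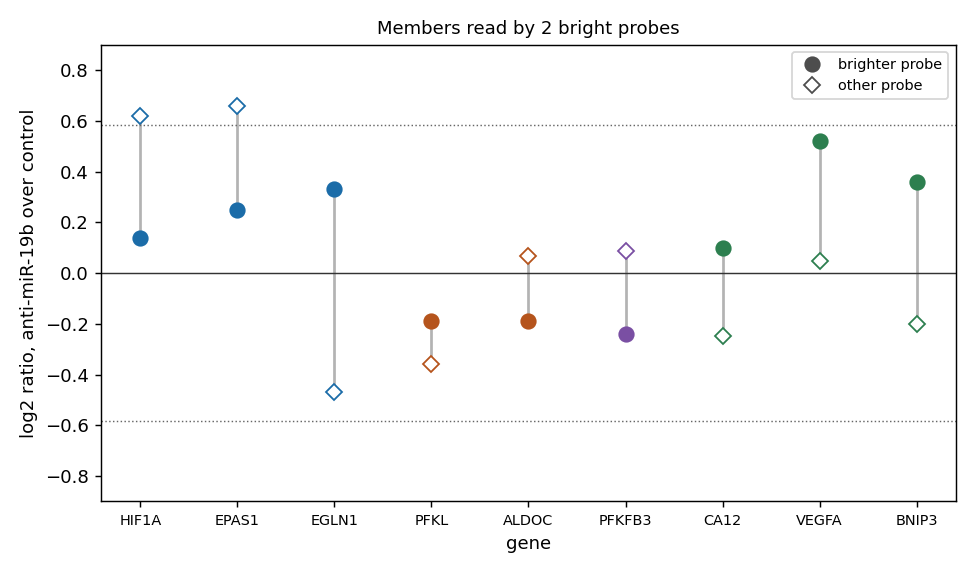
Log2 ratio of anti-miR-19b over control for the 9 genes read by exactly 2 bright probes (y axis, log2 scale), with the brighter probe as a filled circle, the other as an open diamond and a line joining them. The line crosses 0 in 5 genes and is longest in EGLN1 (0.33 and -0.47).

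The promoters of these genes were searched for the core of the hypoxia response element, since the roles above differ in whether HIF is known to act on them. RefSeq (GRCh38.p14) gave 72 promoters for 40 of the 46 genes, each of 300 bases (250 before and 50 after a start), some of them overlapping. The letters ACGTG, on either strand, were in 30 of the 72 (41.7%), against 21.4% of all 35116 promoters of the same length. Among the 19509 promoters of genes compared on the arrays, ACGTG was in 23.4%. The letters GCGTG were in 41.7% of the promoters of these genes, which is above their share of all promoters (36.5%) and below that of the genes compared on the arrays (44%). The promoters of these genes held more G and C (median 68.3%) than all promoters (58.7%) or those of genes compared on the arrays (63%), and the part of base composition in these shares was not tested. ACGTG also lies within CACGTG, the E-box of MYC and related factors, which was in 12.5% of the promoters of these genes and in 7.26% of all. By gene, a match in any promoter counted. Of genes with a promoter in the table, ACGTG was found for 7 of the 10 other HIF-induced genes and 11 of 17 glycolytic enzymes. It was also found for 4 of 6 glycolysis regulators and transporters and 2 of 7 oxygen sensors. Counted the same way over all compared genes with a promoter, 4035 had ACGTG and 9715 did not. Windows of 25 bases are shown for genes that represent each role and for P4HA1, on the strand of the gene. Every ACGTG match is in capitals (CACGT is ACGTG on the other strand), and GCGTG is not marked. The window of PDK1 holds a pair of matches, and in that of LDHA both strands match at the overlapping letters CACGTG. The promoter of P4HA2, of 300 bases, had no ACGTG on either strand.
EGLN1, chr1:231422286-231422310, minus strand: gccgtggtgtACGTGcagagcgcgc
LDHA, chr11:18394467-18394491, plus strand: cccgactcaCACGTGggttcccgca
PGK1, chrX:78104036-78104060, plus strand: ggcgtgccggACGTGacaaacggaa
PDK1, chr2:172556063-172556087, plus strand: tgctgcccgcCACGTccctCACGTa
ANKRD37, chr4:185396688-185396712, plus strand: gtgtttgtgtACGTGcggccgtggc
DDIT4, chr10:72273789-72273813, plus strand: aacgttgcttACGTGcgcccggagt
P4HA1, chr10:73096938-73096962, minus strand: tgatcgagctCACGTagcgagggct

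The ratios of genes with and without ACGTG overlapped. At bright probes the 19 genes with ACGTG had a median log2 ratio of -0.048 (from -0.22 to 0.50), and the 12 without it had -0.13 (from -0.79 to 0.46). Over all probes the order was the other way, with -0.048 for the 21 genes with ACGTG and 0.000 for the 15 without it. Among all genes of the series at bright probes, those with ACGTG had 0.029 and those without it 0.023. Over all probes these were 0.033 and 0.029. A match is a description of the sequence and no evidence of binding in these cells.

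Further genes of the HIF pathway, not among the 46, were set beside them. Of 11 HIF partners and subunits of the VHL ligase, 9 had a bright probe, and 0 of these were over 1.5-fold apart either way (background 2.67%), with a median of 0.013. The highest were HSP90AA1, a chaperone that binds HIF1A (0.39), and CUL2, the scaffold of the VHL ligase (0.32), and the lowest were ELOB, another subunit of that ligase (-0.22), and CITED2, which competes with HIF for coactivators (-0.15). Of 27 other hypoxia-induced genes, 22 had a bright probe, and their median was -0.043. Of the 22, 9 lay above 0 (40.9%, against 53.6% of all genes at bright probes). Past 1.5-fold were 0 higher and 1 lower. The one lower was NDRG1 (3246 on the anti-miR-19b array, against 5009 on the control array, -0.63), which the study had selected on these arrays, so that it is no independent evidence. Next lowest was the chemokine receptor CXCR4 (-0.34), and the highest were the circadian repressor BHLHE40 (0.26) and the growth factor binding protein IGFBP3 (0.26).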

How the data were processed

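Per the labels and the study's methods, the authors labeled RNA of each condition with a single dye (Cy5 in the labels, fluorescein in the methods). It was hybridized to Human OneArray and scanned. What the authors deposited is a normalized intensity for each probe, linear, from -10.3 to 65745. Background correction, normalization and scanner software are, for these files, not given in the sources used here. Extraction text in the labels describes liver tissue and not cells.

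The platform annotation gave 1 symbol for 25053 of the 29187 probes, several for 0 and none for 4134. RefSeq (GRCh38.p14, used for names) held the gene identifier of 24981 of the named probes, and their symbols were updated from it. Log2 ratios were taken for the 26186 probes above 0 on both arrays, 3001 were left out, and probes of a gene were averaged. Counts used a threshold of 1.5-fold, which is the fold that the study states. The study's list of suppressed genes also carries a P-value for each gene. No such value could be computed here, so the counts are not comparable with the study's. The number of arrays limits the precision, and no test was run.

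The genes, roles and lists were chosen with earlier results of these data known. Named with full values were the oxygen sensors, genes with a bright probe past the threshold, the extremes of each role, and isoenzymes. Other genes of the 46 were described with their values as well. Of the lists set beside them, the 2 highest and 2 lowest genes at bright probes were named, and others after their values were seen. Alternatives were centring on the median, quantile normalization, removal of a loess trend (fraction 0.3), bright probes alone, an offset of 50, the brightest probe of a gene and a 2-fold threshold. The steps were tested on simulated data. Tools were Python 3.11.15, statsmodels 0.14.6 (loess), pandas 2.3.3, numpy 2.4.6 and matplotlib 3.10.9.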

Additional observations from a re-analysis of the deposited data

How the results depend on the processing

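No paired analysis was possible because there was only 1 array for each condition. The counts of 4 genes higher and 4 lower were the same with centring, after quantile normalization and without the loess trend, and were 3 and 3 at the brightest probe of each gene. They were 0 higher and 1 lower both at bright probes alone and after adding 50 to each intensity, and 1 and 2 at 2-fold. By construction these take fewer probes, shrink the ratios of dim probes or set a higher threshold. The log2 ratio of ALDOA turned to -0.13 at bright probes alone and at its brightest probe, with ALDOA minus ALDOC at -0.074 at bright probes, and that of PFKM turned to 0.10 at its brightest probe. PFKL minus PFKM turned to -0.18 with the offset and -0.30 at the brightest probe, PFKM minus PFKP to 0.040 and 0.22, and EGLN1 minus EGLN3 to 0.024 with the offset. HIF1A ranged from 0.14 to 0.38 and EPAS1 from 0.25 to 0.46 over the settings. EGLN1 ranged from -0.12 to 0.33 and CA12 from -0.10 to 0.10. VHL ranged from -0.30 to -0.23 and P4HA2 from -0.82 to -0.76. VHL and P4HA2 each have 1 probe, a bright one, so the choice of probes could not move their ratios. The median of the oxygen sensors had no settled sign (0.025 with the offset and 0.087 at the brightest probe), and the medians of the other roles stayed below 0 in every setting run. Of the 342 values of single genes and isoenzyme differences under alternatives, 316 moved by less than the bright spread of 0.26. Part of these could not move by construction. A gene with 1 bright probe keeps its ratio at bright probes alone and at its brightest probe. Centring leaves every isoenzyme difference unchanged. Dim probes limit HK1, PFKM, SLC2A1, SLC2A3, EGLN3 and ANKRD37.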

Other observations

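Of 19 further genes of glycolysis and pyruvate use, 14 had a bright probe. Of the 14, 11 lay above 0 (78.6%, against 53.6% of all genes read this way). The median log2 ratio of the 14 was 0.17, against 0.023 for all genes read this way. Among them 1, DLAT, was over 1.5-fold higher (1.73% of all genes were), and no test was made. PDHB, a subunit of pyruvate dehydrogenase, had 895 on the anti-miR-19b array, against 680 on the control array (0.40), and PDHA1, another subunit, had 0.30, 0.19 and -0.094 at its probes. DLAT, the acetyltransferase of the same complex, had 57.5 with anti-miR-19b and 37.0 in the control at its bright probe (0.63) and 10.4 with anti-miR-19b and 10.9 in the control at its dim probe (-0.060), and DLD, the shared dehydrogenase, had -0.026. TIGAR, which lowers fructose 2,6-bisphosphate, had 843 with anti-miR-19b and 610 in the control (0.47). The lowest of the list were the muscle enolase ENO3 (-0.33) and the muscle mutase PGAM2 (-0.16). Of 5 genes of gluconeogenesis, the path from pyruvate back to glucose, 4 were compared and were within 1.5-fold. At bright probes only 2.67% of all genes were past it. The median of the 4 was 0.16, and the lowest was pyruvate carboxylase, PC (-0.15).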
